A study of Homo sapiens with 12 samples.

Results

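Genes of fatty acid synthesis, desaturation and lipid storage were followed across 4 culture formats of AU565, an established line of human breast carcinoma cells that carries extra copies of the ERBB2 receptor gene. The set was a list of 34 gene symbols looked up in the count table, and 33 of them had a row among its 16020 rows. The fatty acid carrier FABP5 is not analysed here. All 33 passed the filter on low counts that left 15175 genes for testing. The cells were grown as monolayer, small spheroid, large spheroid (both spheroids by liquid overlay) or capsule, with 3 libraries each. Every library, monolayer included, is labelled with trastuzumab, an antibody against the ERBB2 receptor, then 5% matrigel, with RNA taken after 96 h. Libraries without the antibody were not used here, and the comparisons between formats do not bear on its effect. The cells are 1 established line labelled WT, and the labels do not say whether the 3 libraries of a format came from separate cultures. The p-values therefore speak only of differences among the libraries at hand, some of which may be technical.

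Cells make fatty acids from citrate. ATP citrate lyase splits it to acetyl-CoA, acetyl-CoA carboxylase makes malonyl-CoA, and fatty acid synthase joins these units into palmitate with electrons from NADPH. Elongases and desaturases then lengthen the chain and place double bonds. Acyl-CoA synthetases activate fatty acids, and acyltransferases, a lipin phosphatase and diacylglycerol acyltransferases build them into triglyceride, which is kept in lipid droplets coated by perilipins and released by lipases. SREBP-1 and ChREBP are the transcription factors best known for switching these genes on. Breast cancers with amplified ERBB2 are known for abundant fatty acid synthase.

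The start regions of 3 members are shown as examples. These genes gave differences from monolayer (PLIN2 in spheroids, not in capsules) that held with and without the base-composition correction described further on. Other members, such as ELOVL5, FADS3 and MLXIPL, did so too and are not shown. SCD and LPIN1 were lower in each other format, and PLIN2 was highest in large spheroids. The stretches are the parts of the 250 bases before the RefSeq start (GRCh38.p14) that no GENCODE v29 exon covers, 5′ to 3′ on the gene's strand. Capitals mark CCAAT or its reverse ATTGG, the box bound by NF-Y, a factor that works beside SREBP.
SCD, chr10:100346983-100347123, plus strand: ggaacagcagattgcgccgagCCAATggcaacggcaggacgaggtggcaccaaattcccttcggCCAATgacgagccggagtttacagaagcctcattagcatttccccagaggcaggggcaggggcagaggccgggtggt
LPIN1, chr2:11677294-11677543, plus strand: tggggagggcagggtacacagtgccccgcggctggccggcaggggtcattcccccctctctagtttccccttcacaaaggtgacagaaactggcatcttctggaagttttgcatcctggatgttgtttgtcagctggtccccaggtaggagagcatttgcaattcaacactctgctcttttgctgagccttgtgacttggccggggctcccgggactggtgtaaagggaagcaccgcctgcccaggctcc
PLIN2, chr9:19127577-19127742, minus strand: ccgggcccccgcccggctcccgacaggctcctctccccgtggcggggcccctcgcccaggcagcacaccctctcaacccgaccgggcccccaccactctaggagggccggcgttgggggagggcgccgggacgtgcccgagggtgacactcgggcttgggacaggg
The SCD stretch held 2 such boxes, and those of LPIN1 and PLIN2 held 0. Over the whole 250-base windows, 29 of the 33 members had an entry and 14 of them held the box on either strand, among them SCD, ELOVL5, ACLY, ACACA and THRSP, against 32% of 35116 windows of all genes. FASN, HSD17B12, DGAT1 and DGAT2 had no entry. The windows of all genes are not limited to genes tested here, so the 2 shares are of unlike sets. The E-box CACGTG stood in the windows of 2 members, ELOVL5 and PLIN2, and in 6.34% of all windows. The sterol regulatory element written as TCACNCCAC stood in those of ACSL1 and PNPLA2, and in 0.883% of all. A match is a description of letters in the window and not a measured site.

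Libraries held 13971346 to 24729250 counts. Levels are given as CPM, counts scaled to library depth with trimmed-mean (TMM) factors. The luminal markers ERBB2, GRB7, EPCAM, KRT7, KRT8, KRT18, KRT19 and CLDN4 were all present, with summed levels from 14817 to 25542 CPM. Of 10 adipocyte markers, which matter for a lipid gene set, ADIPOQ, CIDEC, FABP4 and LPL had no row analysed here, and the other 6 summed to 11.2 to 16.1 CPM in monolayer and large spheroid and 26.2 to 33 CPM in small spheroid and capsule. Other tissues' genes were uneven. With 6 of 7 markers present, melanocyte genes summed to 54.8 to 115 CPM in monolayer, 23.3 to 30 CPM in large spheroid and 6.27 to 7.71 CPM elsewhere. Mesenchymal genes (8 of 10 markers) summed to 67.4 to 123 CPM in monolayer and 31.1 to 69.5 CPM elsewhere, and endothelial and blood genes (3 of 5) to 4.2 to 12.2 CPM. Cardiac genes (4 of 6) summed to 1.06 to 175 CPM in monolayer, 3.85 to 59 CPM in large spheroid and at most 5.81 CPM elsewhere. The cardiac myosin gene MYH6, scaled to library totals, had 72.1 CPM in monolayer 1 and 69.7 in monolayer 2, 17.4 in large spheroid 1 and 17.7 in large spheroid 2, and no more than 0.358 in the remaining 8 libraries. The part of these reads in the results was not tested; values from the 8 libraries alone, which leave 1 monolayer and 1 large spheroid library, are given beside the calls of single genes that they end. Capsule 1 was unlike the other 2 capsule libraries: the chi-square divided by the number of genes was 39.1 and 34.6 against them, and 2.99 between them.

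Nearly every member differed somewhere: 32 of 33 had an adjusted p below 0.05 in a joint test of the 4 formats (edgeR's quasi-likelihood F test, Benjamini-Hochberg adjustment over all genes), but so did 90% of all genes tested. The member that did not pass was the low-count desaturase gene FADS1 (adjusted p = 0.0561). By mean level, 12 members were highest in monolayer, 12 in small spheroid, 6 in capsule and 3 in large spheroid, and 14 were lowest in large spheroid. Of all 15175 genes tested, 28.3%, 27.6%, 22.1% and 21.9% were highest in these formats, in that order, and 22.7% were lowest in large spheroid. No test was made of these shares. Per kilobase of the longest transcript, the highest monolayer levels were those of FASN (333 CPM per kb), SCD (298) and ACLY (183), and the lowest those of ACSL4 (0.22), FADS2 (0.576), FADS1 (0.622) and DGAT2 (0.647).

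**Figure D1:**
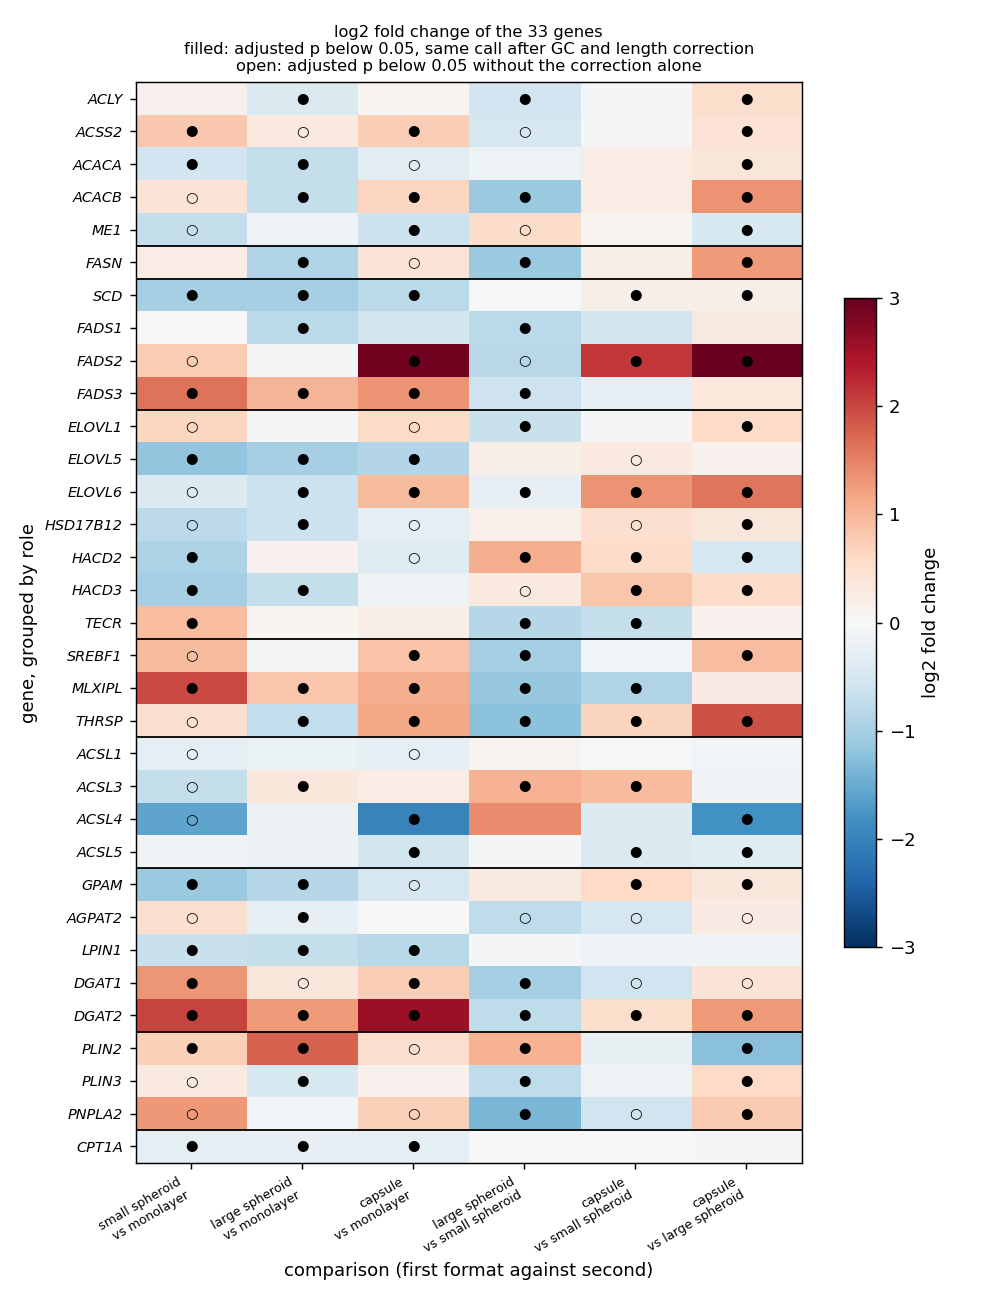
Colour gives the log2 fold change of each of the 33 genes (rows, grouped by role) in the 6 comparisons (columns). Filled circles mark calls at adjusted p below 0.05 that were made in the same direction after the GC and length correction. Open circles mark calls not made in that direction with the correction. Some of these, such as AGPAT2 in small spheroid against monolayer, were then called in the other direction. SCD, ELOVL5 and LPIN1 are blue with filled circles in the first 3 columns, DGAT2, FADS3 and MLXIPL red with filled circles.

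Fold changes between formats followed the base composition of the transcripts. The letters UP stand in the titles of the monolayer and large spheroid libraries only, and the sources used here do not explain them. Across the 33 members, Spearman's rho between GC content and log2 fold change was 0.81 in small spheroid against monolayer and -0.82 in large against small spheroid (0.668 and -0.657 over all genes). Between the 2 formats labelled UP it was 0.22 (0.189 over all genes). Between capsule and small spheroid, neither labelled UP, it was -0.43 (-0.50 over all genes). For capsule it was 0.62 against monolayer and 0.54 against large spheroid (0.43 and 0.288 over all genes). Genes are not independent and share these libraries, so the values are descriptions. A second fit therefore removed, in each library, the trend of log2 CPM on GC content and transcript length. Corrected values are given beside many of the differences of single genes.

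**Figure D2:**
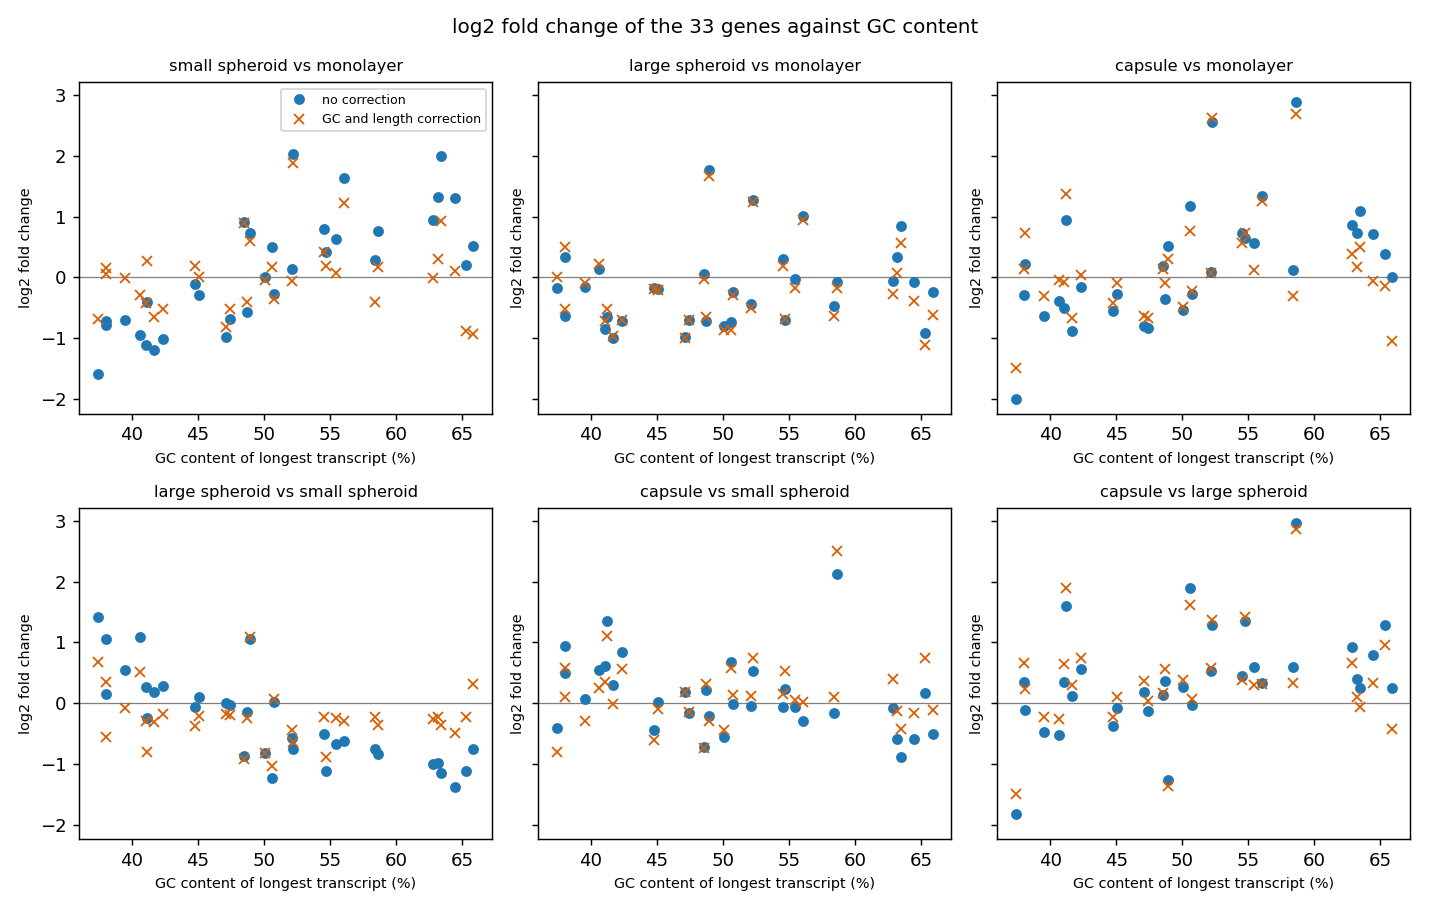
Each panel plots the log2 fold change of the 33 genes against the GC content of their longest transcript, in percent. Dots are the fit without correction and crosses the fit with the GC and length correction. In small spheroid against monolayer the dots climb with GC (rho 0.81), while in large spheroid against monolayer they do so little (rho 0.22).

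In small spheroids the triglyceride-forming enzyme gene DGAT2, the ChREBP gene MLXIPL and the desaturase gene FADS3 were raised 3.1-fold to 4.11-fold over monolayer, and SCD and the elongase gene ELOVL5 were 1.98-fold and 2.28-fold lower. Of the 33 members 15 rose (37% of all genes tested rose), 14 fell (35.3% of all genes fell) and 4 did not pass. The median log2 fold change was 0.14 against 0.01 over all genes. Calls made both with and without the correction numbered 7 higher (20.7% of all genes in that fit) and 8 lower (22.1%). The 7 were FADS3, DGAT2, TECR, ACSS2, MLXIPL, DGAT1 and PLIN2, and the 8 were SCD, GPAM, CPT1A, HACD3, ACACA, LPIN1, HACD2 and ELOVL5. The corrected fit by itself called 10 higher (28.9% of all genes) and 11 lower (33.3%).

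In large spheroids more members fell than rose: 16 fell against monolayer (28.4% of all genes fell), 7 rose (28.7% of all rose) and 10 did not pass. FASN, both acetyl-CoA carboxylase genes, SCD and 4 of the 7 elongation genes were among those that fell, and the lipid droplet coat gene PLIN2 had the highest rise. The median was -0.20 against 0.00 over all genes. All 16 lower calls were also made with the correction (27.2% of all genes in that fit), as were 5 higher ones (25.6%), those of FADS3, DGAT2, ACSL3, MLXIPL and PLIN2. The corrected fit by itself called 21 lower (33.2% of all genes) and 6 higher (28.7%). Fewer members were called with the 8 libraries alone, where FADS3, DGAT2 and PLIN2 stayed higher. The share of all genes called in that fit is not given, so the fall in calls is not a result about the members.

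Capsules stood out by FADS2, a fatty acid desaturase gene raised 7.43-fold over monolayer. DGAT2 was raised 5.91-fold, and was also raised over monolayer in small and large spheroids. In all, 14 members rose (34.5% of all genes rose), 12 fell (31.5% of all fell) and 7 did not pass, with a median of 0.13 against 0.04. With and without the correction, 10 rose (24.8%) and 7 fell (23.7%). The 10 were FADS2, FADS3, DGAT2, THRSP, ACACB, SREBF1, ACSS2, ELOVL6, MLXIPL and DGAT1, and the 7 were SCD, ACSL5, CPT1A, LPIN1, ELOVL5, ME1 and ACSL4. The corrected fit by itself called 11 higher (31.4% of all genes) and 9 lower (32.4%). The lower count was smaller with the 8 libraries alone, and without capsule 1 the counts were 16 higher and 13 lower. Shares of all genes called in those fits are not given. These 3 comparisons share the monolayer libraries, so their values are given side by side without counting agreement between them.

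Between the 2 spheroid sizes most differing members were lower in the large ones. There 18 fell against small spheroids (33.4% of all genes fell), 5 rose (32.9% of all rose) and 10 did not pass, with a median of -0.50 against 0.00 over all genes. With the correction the median of the members was -0.25, and the calls made both ways were 15 lower (18.6%) and 3 higher (17%), the latter ACSL3, HACD2 and PLIN2. The corrected fit by itself called 23 lower (26.8% of all genes) and 4 higher (24.6%). The higher count was 9 with scaling to library totals and 8 when the 2 formats were fitted alone, with no share of all genes given beside them.

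Capsules against small spheroids gave the fewest calls: 11 members were higher in capsule (27% of all genes), 6 lower (25%) and 16 did not pass, with a median of -0.01 against 0.02. Called both ways were 9 higher (17.9%), led by FADS2 and ELOVL6, and 3 lower (16.5%), ACSL5, TECR and MLXIPL. The corrected fit by itself called 13 higher (24.4% of all genes) and 4 lower (22.1%). Without capsule 1 the counts were 11 higher and 7 lower, with no share of all genes given for that fit.

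Capsules against large spheroids gave the most calls in 1 direction. There 19 members were higher in capsule (32.1% of all genes), 5 lower (30.6%) and 9 did not pass, with a median of 0.35 against 0.02 over all genes. Both ways, 17 were higher (26.9%) and 5 lower (25.4%), the 5 being ACSL5, HACD2, ME1, PLIN2 and ACSL4. The corrected fit by itself called 20 higher (33.4% of all genes) and 6 lower (31.2%). Leaving out capsule 1 gave 18 higher and 7 lower, and both counts were smaller with the 8 libraries alone. For neither fit is the share of all genes called given.

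The regulators come first by role. SREBF1, the gene of SREBP-1, had 418, 444 and 492 CPM in monolayer, 921, 805 and 885 in small spheroids, 487, 428 and 387 in large spheroids, and 681, 914 and 869 in capsules. All small spheroid and capsule libraries lay above all others. The log2 fold change over monolayer was 0.95 ± 0.11 (SE, adjusted p = 6.67e-07) in small spheroids and 0.86 ± 0.11 (adjusted p = 2.77e-06) in capsules. With the correction these became -0.01 (adjusted p = 0.912) and 0.39 (adjusted p = 6.17e-05), so the small spheroid difference did not remain. Large spheroids differed from monolayer by -0.06 (adjusted p = 0.684), or -0.28 (adjusted p = 0.00179) with the correction. Large against small spheroids gave -1.003 (adjusted p = 6.27e-07; -0.27 with the correction, adjusted p = 0.00321), and capsule against large 0.92 (adjusted p = 1.61e-06; 0.67 with it). Capsule and small spheroid differed by -0.08 (adjusted p = 0.548), but by 0.40 (adjusted p = 9.45e-05) in the other direction with the correction. SREBF1 overlaps RAI1 by 120 bases and holds the microRNA gene MIR33B.

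MLXIPL, the gene of the sugar-sensing factor ChREBP, was lowest in monolayer at 14.7, 13.9 and 13.5 CPM. It reached 59.3, 50.4 and 57.2 CPM in small spheroids, 28.9, 27.1 and 19.4 in large spheroids and 29.3, 30.7 and 29.9 in capsules, with all monolayer libraries below all others. Over monolayer it rose by a log2 fold change of 1.99 ± 0.12 (adjusted p = 4.67e-10), 0.84 ± 0.12 (adjusted p = 1.94e-05) and 1.10 ± 0.12 (adjusted p = 7.11e-07) in these formats, and by 0.93, 0.56 and 0.50 with the correction, each still called. The middle value did not pass with the 8 libraries alone (0.55, adjusted p = 0.0564). Small spheroids exceeded both other formats: large against small gave -1.15 (adjusted p = 3.07e-07; -0.36 with the correction) and capsule against small -0.89 (adjusted p = 1.25e-05; -0.43 with it).

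THRSP encodes Spot 14, a small protein induced with lipogenic enzymes. Its levels were 5.91, 5.85 and 5 CPM in monolayer, 7.33, 8.63 and 7.73 in small spheroids, 2.78, 3.51 and 3.79 in large spheroids and 12.4, 12.8 and 12.6 in capsules. The 4 formats did not overlap, with capsule on top and large spheroid at the bottom. Capsule exceeded monolayer by a log2 fold change of 1.17 ± 0.13 (adjusted p = 8.50e-07; 0.76 with the correction), small spheroid by 0.67 ± 0.14 (adjusted p = 5.65e-04) and large spheroid by 1.90 ± 0.14 (adjusted p = 7.33e-09). Large spheroid against small gave -1.23 ± 0.15 (adjusted p = 2.03e-06), and against monolayer -0.73 ± 0.15 (adjusted p = 4.73e-04; -0.37, adjusted p = 0.341, with the 8 libraries alone). The rise in small spheroids over monolayer, 0.50 (adjusted p = 0.00426), was not called with the correction (0.18, adjusted p = 0.272). THRSP shares 55 bases with NDUFC2, a respiratory chain gene at mean levels from 42.3 to 55.5 CPM. NDUFC2 differed by 0.27 (adjusted p = 0.141) between capsule and monolayer and by -0.01 (adjusted p = 0.966) between capsule and large spheroid.

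**Figure D3:**
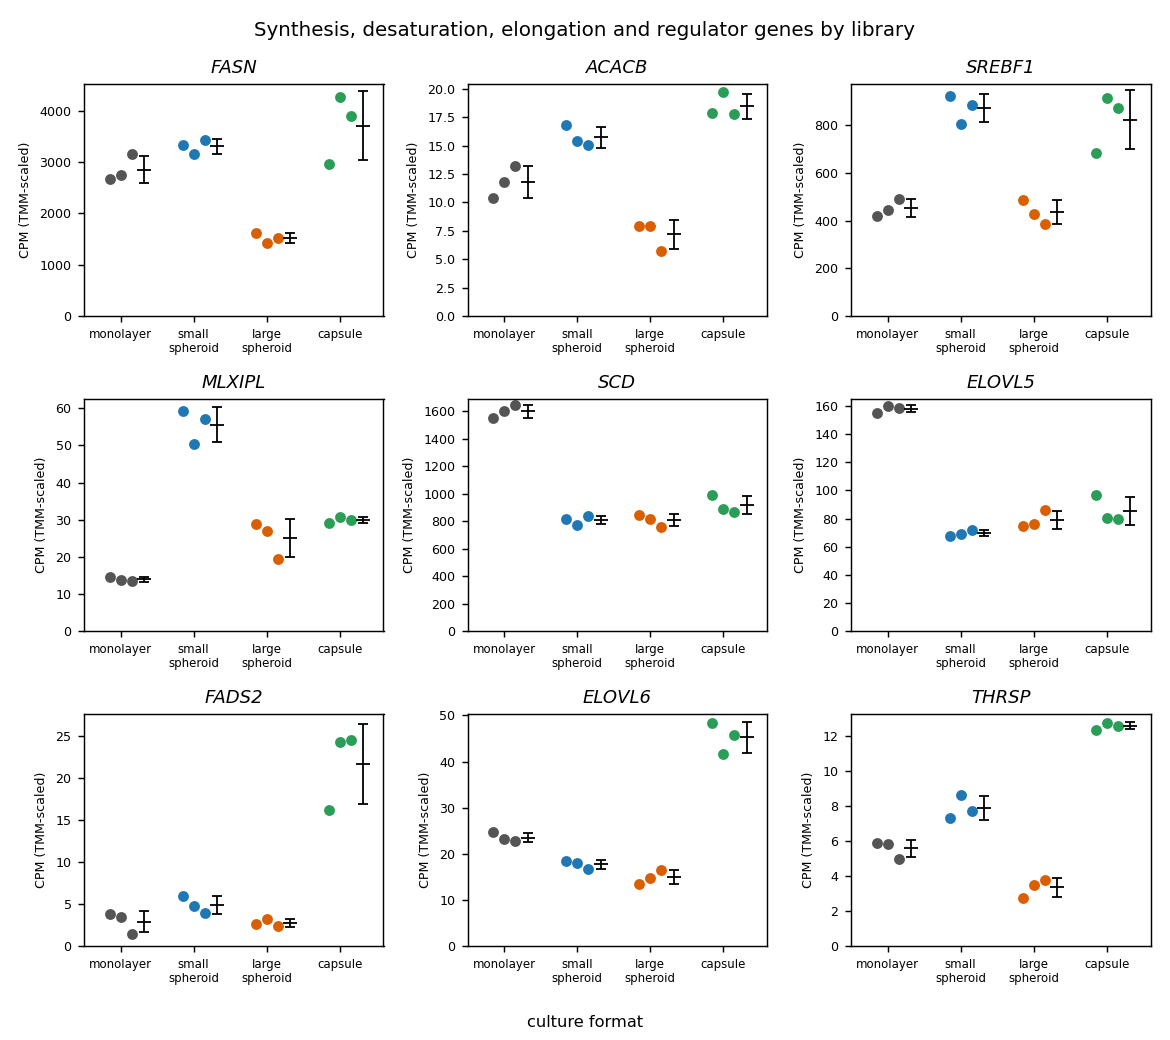
TMM-scaled CPM of 9 genes in each library by culture format. Dots are the 3 libraries and the bar beside them is the mean with its SD. FASN and ACACB are lowest in large spheroids, SCD and ELOVL5 highest in monolayer, and FADS2, ELOVL6 and THRSP highest in capsules.

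Of the 5 genes that supply acetyl-CoA, malonyl-CoA and NADPH, 3 fell and 1 rose in large spheroids against monolayer, and 4 were higher and 1 lower in capsule against large spheroid. Of all genes, 28.4% fell and 28.7% rose in the first comparison, and 32.1% were higher and 30.6% lower in the second. ACLY, the ATP citrate lyase gene, stood at 784, 751 and 843 CPM in monolayer, 858, 888 and 872 in small spheroids, 562, 573 and 624 in large spheroids and 753, 911 and 868 in capsules. The large spheroid libraries lay below all 9 others. They fell by 0.43 ± 0.08 on the log2 scale against monolayer (adjusted p = 2.13e-04) and by 0.57 ± 0.08 against small spheroids (adjusted p = 9.83e-06), and capsule was higher than they by 0.53 ± 0.08 (adjusted p = 2.75e-05). The difference from monolayer did not pass with the 8 libraries alone (-0.40, adjusted p = 0.108). ACLY did not pass in small spheroid against monolayer (0.14, adjusted p = 0.132; -0.06 with the correction, adjusted p = 0.53), capsule against monolayer (0.09, adjusted p = 0.338; 0.17, adjusted p = 0.0251, without capsule 1) or capsule against small spheroid (-0.05, adjusted p = 0.638; 0.13 with the correction, adjusted p = 0.197).

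The 2 acetyl-CoA carboxylase genes had their highest levels in different formats. ACACA, whose cytosolic enzyme feeds synthesis, was highest in monolayer at 13.8, 15.5 and 15 CPM, above all libraries of the other formats, which ran from 8.45 to 12.9. It fell by 0.57 ± 0.12 (log2, adjusted p = 3.47e-04) in small spheroids, 0.72 ± 0.12 (adjusted p = 5.23e-05) in large spheroids and 0.35 ± 0.12 (adjusted p = 0.0136) in capsules. The capsule value was -0.09 (adjusted p = 0.46) with the correction, and was not called without monolayer 2 (adjusted p = 0.0547) or capsule 3 (adjusted p = 0.0536). Capsule against large spheroid gave 0.37 (adjusted p = 0.0134; not called without large spheroid 1, 0.0525, or capsule 2, 0.0723), capsule against small spheroid 0.22 (adjusted p = 0.143; 0.31 with the correction, adjusted p = 0.0354) and large against small spheroid -0.15 (adjusted p = 0.294; -0.24 with the correction, adjusted p = 0.09). Neither capsule call was made with the 8 libraries alone (adjusted p = 0.0975 and 0.12).

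ACACB, whose product sits at the mitochondrial outer membrane and restrains fatty acid entry, was highest in capsule at 17.8, 19.7 and 17.8 CPM. Monolayer held 10.4, 11.8 and 13.2, small spheroids 16.8, 15.4 and 15.1, and large spheroids 7.94, 7.97 and 5.75, again with no overlap between formats. Large against small spheroids gave -1.12 ± 0.14 (adjusted p = 2.02e-06), capsule against large spheroids 1.35 ± 0.14 (adjusted p = 2.06e-07) and large spheroids against monolayer -0.71 ± 0.14 (adjusted p = 2.79e-04; -1.17 with the 8 libraries alone). The rise in capsule over monolayer was 0.64 ± 0.13 (adjusted p = 3.03e-04), and that in small spheroids, 0.42 (adjusted p = 0.00856), was not called with the correction (0.20, adjusted p = 0.16) or with the 8 libraries alone (0.24, adjusted p = 0.253). ACSS2, which makes acetyl-CoA from acetate, rose 1.74-fold in small spheroids and 1.67-fold in capsules from 151 ± 2.35 CPM (SD, n = 3) in monolayer, with a corrected small spheroid value of 0.41 (adjusted p = 0.00104). In large spheroids its rise of 0.30 (adjusted p = 0.011) was not called with the correction (0.18, adjusted p = 0.105) or with the 8 libraries alone (0.23, adjusted p = 0.433). ME1, the cytosolic malic enzyme gene that yields NADPH, was 1.63-fold lower in small spheroids and 1.55-fold lower in capsules than in monolayer (179 ± 8.24 CPM). The small spheroid value left no difference after the correction (-0.01, adjusted p = 0.93), while the capsule value was then -0.31 (adjusted p = 2.94e-04).

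FASN, the multi-domain synthase that makes palmitate, had 2661, 2738 and 3163 CPM in monolayer, 3335, 3152 and 3427 in small spheroids, 1612, 1432 and 1518 in large spheroids and 2963, 4266 and 3893 in capsules. Large spheroids lay below the other 9 libraries. They were 1.88-fold lower than monolayer (-0.91 ± 0.11, adjusted p = 2.36e-06) and 2.17-fold lower than small spheroids (-1.12 ± 0.11, adjusted p = 1.93e-07; -0.22 with the correction, adjusted p = 0.045). Capsule exceeded large spheroids 2.44-fold (1.29 ± 0.11, adjusted p = 3.35e-08).

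Among the other 3 formats the order of FASN, whose transcript is 65.3% GC, depended on the correction. Small spheroids differed from monolayer by 0.21 (adjusted p = 0.0913; 0.29, adjusted p = 0.0394, without monolayer 3), but by -0.89 (adjusted p = 6.01e-08) with the correction. Capsule was higher than monolayer by 0.38 ± 0.11 (adjusted p = 0.0059) with overlapping libraries, and the corrected value was -0.15 (adjusted p = 0.159). Capsule against small spheroid gave 0.17 (adjusted p = 0.215), 0.30 (adjusted p = 0.00272) without capsule 1, and 0.74 (adjusted p = 1.65e-06) with the correction. The 8 libraries alone gave large spheroid against monolayer -1.03 (adjusted p = 0.00532), and did not call capsule against monolayer (0.21, adjusted p = 0.368).

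SCD, the stearoyl-CoA desaturase that makes oleate, was highest in monolayer. Its levels were 1554, 1599 and 1648 CPM in monolayer, 815, 774 and 837 in small spheroids, 846, 819 and 760 in large spheroids, and 995, 891 and 871 in capsules. Every monolayer library was well above every other library. The log2 fold changes against monolayer were -0.98 ± 0.08 (adjusted p = 4.85e-09) in small spheroids, -0.99 ± 0.08 (adjusted p = 9.49e-09) in large spheroids and -0.80 ± 0.08 (adjusted p = 7.83e-08) in capsules. With the correction they were -0.82, -0.99 and -0.63, and with the 8 libraries alone -1.04, -1.09 and -0.87, all called. Large and small spheroids did not differ beyond their spread (0.00 ± 0.07, adjusted p = 0.993; -0.18 with the correction, adjusted p = 0.0426). Capsule was higher than small spheroids by 0.18 (adjusted p = 0.0479) and than large spheroids by 0.19 (adjusted p = 0.0395; 0.36 with the correction). The first of these calls was lost on leaving out any of the small spheroid libraries or capsule 1 or 2, and the second on leaving out large spheroid 2 or 3 or capsule 1 (adjusted p from 0.0512 to 0.157). Neither was made with the 8 libraries alone (adjusted p = 0.14 and 0.196).

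The 3 FADS genes lie side by side on chromosome 11. FADS2, the delta-6 desaturase gene that starts polyunsaturated fatty acid synthesis, had 3.87, 3.43 and 1.47 CPM in monolayer, 6, 4.77 and 3.98 in small spheroids and 2.61, 3.26 and 2.41 in large spheroids. In capsules it reached 16.2, 24.3 and 24.6 CPM, with the lowest capsule library far above all others. The capsule log2 fold changes were 2.89 ± 0.25 over monolayer (adjusted p = 3.32e-08), 2.13 ± 0.25 over small spheroids (adjusted p = 3.62e-06) and 2.96 ± 0.26 over large spheroids (adjusted p = 3.94e-08). They were 2.68, 2.50 and 2.86 with the correction and 3.07, 2.30 and 3.14 without capsule 1, and the 8 libraries alone gave 3.85, 2.12 and 3.11. The rise of FADS2 in small spheroids over monolayer (0.76, adjusted p = 0.0218) was not called with the correction (0.18, adjusted p = 0.545), nor without monolayer 3 (0.45, adjusted p = 0.102) or small spheroid 1 (0.59, adjusted p = 0.115), while the 8 libraries alone gave 1.73 (adjusted p = 0.00175). Its lower level in large than in small spheroids (-0.83, adjusted p = 0.0178) was likewise lost with the correction (-0.35, adjusted p = 0.256), without small spheroid 1 (-0.66, adjusted p = 0.0952) and without large spheroid 3 (-0.74, adjusted p = 0.0582).

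FADS1, the delta-5 desaturase gene that follows FADS2 in the pathway and overlaps it by 801 bases, did not pass in capsules against monolayer. It held 1.96, 1.93 and 1.97 CPM in capsules against 2.71, 4.04 and 1.7 in monolayer (-0.54, adjusted p = 0.141; -0.80, adjusted p = 0.0256, without monolayer 3). In large spheroids it was lower than in monolayer (-0.81, adjusted p = 0.0368) and small spheroids (-0.82, adjusted p = 0.0365). The first of these calls was lost without monolayer 1 or 2 or large spheroid 3, and the second without small spheroid 2 or 3 or large spheroid 3 (adjusted p from 0.0594 to 0.283). The 8 libraries alone did not give the first (adjusted p = 0.151) and gave -1.68 (adjusted p = 0.0032) for the second. FADS3, a ceramide desaturase gene, was lowest in monolayer at 7.68, 7.43 and 5.79 CPM. Small spheroids held 20.7, 20.8 and 23.4, large spheroids 16.1, 15.2 and 10.8, and capsules 16.1, 18.7 and 18.1, so that no monolayer library reached any of them. It rose over monolayer by 1.63 ± 0.15 (adjusted p = 3.85e-08), 1.01 ± 0.15 (adjusted p = 2.18e-05) and 1.34 ± 0.15 (adjusted p = 6.54e-07), and by 1.23, 0.94 and 1.25 with the correction. The 8 libraries alone gave 1.89, 0.93 and 1.58, all called.

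Elongation adds carbons in a repeated cycle. Of its 7 genes 5 fell and 2 rose in small spheroids, 4 fell and 0 rose in large spheroids, and 3 fell and 2 rose in capsules, each against monolayer. All genes gave 35.3% lower and 37% higher, 28.4% and 28.7%, and 31.5% and 34.5% in these comparisons. ELOVL5, the elongase of polyunsaturated chains, was highest in monolayer at 155, 160 and 159 CPM. The other formats held 67.5, 69.3 and 71.7 (small spheroid), 74.5, 76.1 and 86.4 (large spheroid) and 97.1, 80.2 and 79.8 CPM (capsule), all well below. It fell by 1.19 ± 0.09 (log2, adjusted p = 3.42e-09), 1.001 ± 0.09 (adjusted p = 4.50e-08) and 0.88 ± 0.09 (adjusted p = 1.38e-07), and the corrected values were -0.66, -0.97 and -0.67. The 8 libraries alone gave -1.21, -0.85 and -0.91, all called. ELOVL6, which extends palmitate to stearate, ran the other way in capsules, at 48.4, 41.7 and 45.7 CPM. Monolayer held 24.7, 23.1 and 22.8, small spheroids 18.5, 18.1 and 16.7, and large spheroids 13.5, 14.8 and 16.6 CPM. Capsule exceeded them by 0.95 ± 0.09 (adjusted p = 1.73e-07), 1.35 ± 0.10 (adjusted p = 3.41e-08) and 1.60 ± 0.10 (adjusted p = 6.31e-10). After the correction the differences were 1.38, 1.11 and 1.90. Small spheroids were below monolayer (-0.41, adjusted p = 0.00157), but above it with the correction (0.27, adjusted p = 0.0119), and with the 8 libraries alone the call was not made (adjusted p = 0.0517). Large spheroids were also below monolayer (-0.65, adjusted p = 2.88e-05), which the 8 libraries alone did not call (-0.43, adjusted p = 0.127). Large against small spheroids gave -0.25 (adjusted p = 0.0458; -0.80 with the correction), a call lost with the 8 libraries alone (-0.05, adjusted p = 0.809) and without any 1 of small spheroid 1, 2 or 3 or large spheroid 1 or 2 (adjusted p from 0.0619 to 0.193).

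HACD2 and HACD3 encode dehydratases of the elongation cycle. HACD2 had 48.6, 48.8 and 46.6 CPM in monolayer, 26, 23.9 and 24.8 in small spheroids, 51.5, 53.1 and 53.6 in large spheroids and 44, 35 and 30.4 in capsules. Small spheroids were lowest, and large spheroids exceeded them by 1.08 ± 0.11 (adjusted p = 2.22e-07; 0.51 with the correction, adjusted p = 1.56e-05). HACD3 fell 2.01-fold in small spheroids (162 ± 6.27 to 80.6 ± 5.13 CPM; -1.01 ± 0.11, adjusted p = 2.18e-07, and -0.52 with the correction) and 1.65-fold in large spheroids. Capsule was above small spheroids by 0.84 ± 0.11 (adjusted p = 8.22e-06; 0.56 with the correction), with capsule 1 at 175 CPM and the other 2 capsule libraries at 133 and 126. Its higher level in large than in small spheroids (0.28, adjusted p = 0.0279) turned to -0.18 (adjusted p = 0.0499) with the correction, and was not called with the 8 libraries alone (0.43, adjusted p = 0.0565) or without small spheroid 1 or 3 or large spheroid 2 or 3. TECR, the last reductase of the cycle, was highest in small spheroids, 1.89-fold above monolayer (91.1 ± 2.23 against 48.2 ± 4.71 CPM; 0.92 ± 0.13, adjusted p = 5.43e-06), and its value barely moved with the correction (0.89). TECR's annotated span overlaps that of the heat shock gene DNAJB1, which was lower in small spheroids than in monolayer (-0.48, adjusted p = 9.96e-05). ELOVL1, the elongase of very long chains, rose 1.55-fold in small spheroids and 1.48-fold in capsules, and neither call was made with the correction (0.07, adjusted p = 0.319, and 0.13, adjusted p = 0.0891). HSD17B12, the keto-reductase of the cycle, fell 1.73-fold in small spheroids and 1.56-fold in large spheroids from 176 ± 7.24 CPM, and the small spheroid call was not made with the correction (0.05, adjusted p = 0.592), nor the large spheroid call with the 8 libraries alone (-0.42, adjusted p = 0.242). Its lower level in capsules (-0.29, adjusted p = 0.0493) was lost with the correction (0.14, adjusted p = 0.0976), with the 8 libraries alone (adjusted p = 0.255) and without any 1 of the monolayer libraries or of capsule 2 or 3.

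Acyl-CoA synthetases attach coenzyme A to fatty acids, and 3 of the 4 fell in small spheroids against monolayer, 0 fell and 1 rose in large spheroids, and 3 fell in capsules. With 4 genes such counts are a description, beside 35.3%, 28.4% and 31.5% of all genes that fell in these comparisons. None of the 3 that fell in small spheroids was called lower with the correction. ACSL3, the member found on nascent lipid droplets, had 137, 128 and 130 CPM in monolayer, 79.1, 78.9 and 81.6 in small spheroids, 163, 168 and 167 in large spheroids and 188, 136 and 137 in capsules. Small spheroids lay below all others. Large against small spheroids gave 1.05 ± 0.10 (adjusted p = 1.73e-07; 0.35 with the correction, adjusted p = 1.47e-04), and capsule against small 0.94 ± 0.10 (adjusted p = 1.88e-06; 0.57 with the correction). The fall of ACSL3 in small spheroids against monolayer (-0.72, adjusted p = 7.25e-06) turned to 0.15 (adjusted p = 0.0422) with the correction. Its rise in large spheroids over monolayer (0.34, adjusted p = 0.00865; 0.50 with the correction) was not called with the 8 libraries alone (0.39, adjusted p = 0.214). In capsules against monolayer it did not pass (0.22, adjusted p = 0.0604), but did with the correction (0.73, adjusted p = 4.15e-09). It was also called without capsule 2 or 3 (adjusted p = 0.016 and 0.0215), which leaves more weight on capsule 1 at 188 CPM. Capsule against large spheroid did not pass (-0.11). It was called lower without capsule 1 (-0.28, adjusted p = 2.00e-04) and higher with the correction (0.23, adjusted p = 0.00361).

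ACSL5, the mitochondrial and reticular synthetase, overlaps ZDHHC6 by 3965 bases, and ZDHHC6 differed by -0.18 (adjusted p = 0.139) in capsule against monolayer. ACSL5 was lowest in capsules, 1.46-fold below monolayer (-0.55 ± 0.09, adjusted p = 6.38e-05). Capsule against large spheroid gave -0.37 (adjusted p = 0.00221; -0.22 with the correction, adjusted p = 0.00674), and the 8 libraries alone did not call it (-0.37, adjusted p = 0.082). ACSL1, with the highest monolayer level per length of the 4 (127 CPM per kb), was 1.23-fold lower in small spheroids and 1.21-fold lower in capsules, and neither was called with the correction (0.00, adjusted p = 0.958, and -0.10, adjusted p = 0.215) or with the 8 libraries alone (adjusted p = 0.0882 and 0.112). ACSL4, which favours arachidonic acid, was barely expressed: 28, 43 and 7 counts in the monolayer libraries, 9, 3 and 4 in small spheroids, 20, 25 and 12 in large spheroids and 9, 3 and 1 in capsules. Its calls in small spheroids (-1.59 ± 0.61, adjusted p = 0.0271) and capsules (-1.99 ± 0.63, adjusted p = 0.0106) against monolayer were not made with the 8 libraries alone, which leave out monolayer 1 and 2. The values were then 0.24 (adjusted p = 0.832) and -0.17 (adjusted p = 0.894). The small spheroid call was also lost with the correction (-0.68, adjusted p = 0.322) and without monolayer 1 or 2 or small spheroid 2 or 3 (adjusted p from 0.0727 to 0.127), and the capsule call without monolayer 2 (0.0589) or capsule 3 (0.0502). Without capsule 1 the capsule value was -3.01 (adjusted p = 0.0022). Capsule against large spheroid gave -1.82 ± 0.65 (adjusted p = 0.023), lost without large spheroid 1 or 2 or capsule 2 or 3 (adjusted p from 0.0506 to 0.0906) and with the 8 libraries alone (adjusted p = 0.217).

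In glycerolipid assembly DGAT2 and DGAT1 rose and GPAM and LPIN1 fell in small spheroids against monolayer, each with and without the correction. DGAT2, a diacylglycerol acyltransferase linked to newly made fatty acids, had 3.26, 4.12 and 4.13 CPM in monolayer, 16.4, 12.7 and 18.6 in small spheroids, 10.5, 9.17 and 8.45 in large spheroids and 25.3, 20.4 and 22.9 in capsules. The 4 formats did not overlap. Over monolayer it rose by 2.04 ± 0.16 (adjusted p = 6.59e-09), 1.28 ± 0.16 (adjusted p = 4.04e-06) and 2.56 ± 0.16 (adjusted p = 5.67e-10), and the corrected values were 1.88, 1.24 and 2.62. The 8 libraries alone gave 1.92, 1.06 and 2.44, all called. Capsule also exceeded large spheroids by 1.28 ± 0.15 (adjusted p = 8.62e-07) and small spheroids by 0.53 ± 0.14 (adjusted p = 0.00526), and large spheroids were below small ones (-0.76, adjusted p = 2.60e-04).

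DGAT1, the other diacylglycerol acyltransferase, stood at 50.9, 50.2 and 61 CPM in monolayer, 143, 133 and 130 in small spheroids, 76.8, 66.5 and 61.2 in large spheroids and 71.9, 93.9 and 104 in capsules. Small spheroids were highest without overlap, by 1.32 ± 0.12 over monolayer (adjusted p = 4.46e-08), but by 0.30 (adjusted p = 0.00144) with the correction. For capsules the values were 0.74 (adjusted p = 5.15e-05) and 0.18 (adjusted p = 0.0441), and for large spheroids 0.34 (adjusted p = 0.0269) and 0.08 (adjusted p = 0.38). The large spheroid call was also lost without monolayer 1 or 2 or large spheroid 1, and with the 8 libraries alone (0.03, adjusted p = 0.935). DGAT1 overlaps the heat shock factor gene HSF1 by 137 bases, and HSF1 rose by 1.06 (adjusted p = 4.56e-08) in small spheroids over monolayer.

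GPAM, the mitochondrial acyltransferase that commits fatty acids to glycerol, was highest in monolayer at 59.5, 58.6 and 56 CPM. Small spheroids held 27, 27.1 and 26.6, large spheroids 31.6, 33.6 and 31.7, and capsules 56, 32.7 and 34.2, so that capsule 1 alone lay near monolayer. It fell by 1.11 ± 0.15 (adjusted p = 3.02e-06; -0.42 with the correction, adjusted p = 0.00156) in small spheroids, by 0.84 ± 0.14 (adjusted p = 8.09e-05) in large spheroids and by 0.50 ± 0.14 (adjusted p = 0.00521) in capsules. The capsule value was not called with the correction (-0.08, adjusted p = 0.492), and the large spheroid value not with the 8 libraries alone (-0.79, adjusted p = 0.0742; capsule -0.47, adjusted p = 0.117). Capsule against large spheroid gave 0.35 (adjusted p = 0.0477; 0.64 with the correction). It was 0.05 (adjusted p = 0.549) without capsule 1, and was not called without any 1 of the large spheroid libraries or with the 8 libraries alone (adjusted p = 0.317).

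LPIN1, the phosphatidate phosphatase whose start region is printed above, had 86.4, 78.8 and 78.6 CPM in monolayer, 55.9, 47.6 and 48.9 in small spheroids, 49.8, 47.8 and 51.6 in large spheroids and 46.3, 47.1 and 42.9 in capsules. Monolayer was above all others. The log2 fold changes were -0.68 ± 0.08 (adjusted p = 1.28e-06), -0.71 ± 0.08 (adjusted p = 1.47e-06) and -0.84 ± 0.08 (adjusted p = 1.56e-07), or -0.52, -0.71 and -0.67 with the correction. AGPAT2, the next acyltransferase after GPAM, has the highest GC content of the set (65.9%), and its direction turned with the correction. In small spheroids over monolayer it was 0.51 (adjusted p = 2.86e-05) without it and -0.93 (adjusted p = 3.59e-09) with it. In large against small spheroids the pair was -0.75 (adjusted p = 7.02e-07) and 0.31 (adjusted p = 0.00282).

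**Figure D4:**
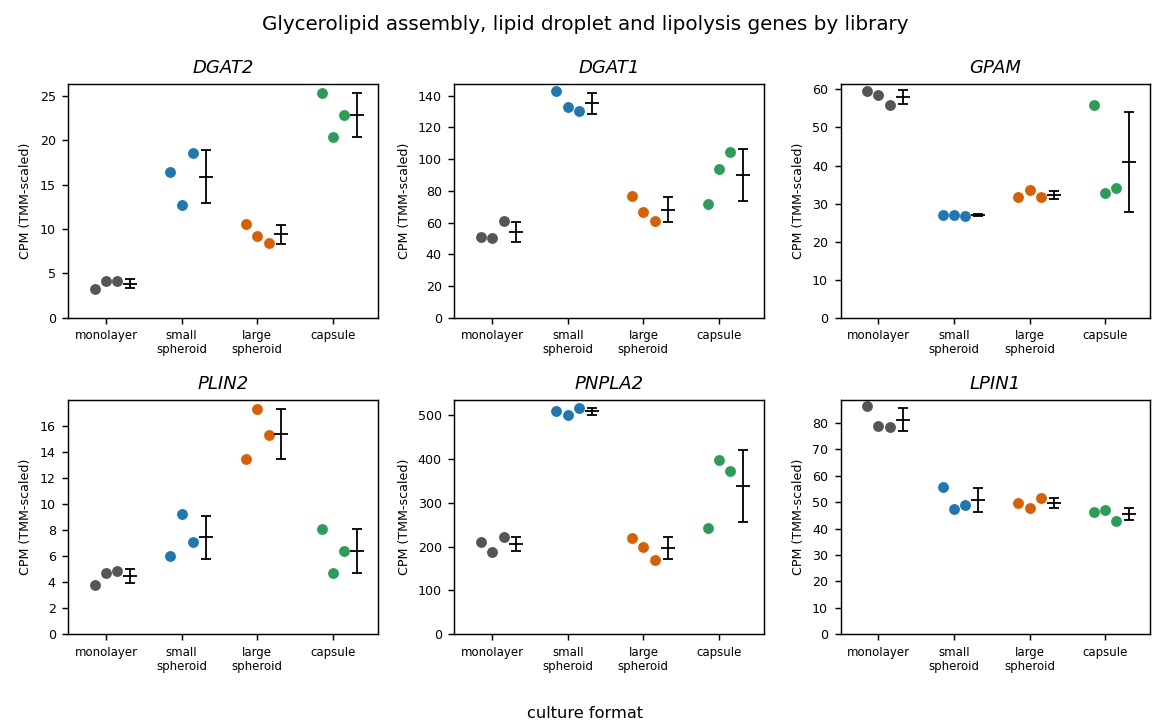
TMM-scaled CPM of 6 genes of triglyceride assembly, droplet coating and lipolysis in each library by culture format, with the mean and SD of the 3 libraries beside the dots. DGAT2 is lowest in monolayer and highest in capsules, PLIN2 is highest in large spheroids (13.4 to 17.3 CPM), and capsule 1 lies apart from its partners in GPAM and PNPLA2.

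PLIN2, the perilipin that coats lipid droplets in most cells, had 3.81, 4.73 and 4.87 CPM in monolayer, 6, 9.24 and 7.11 in small spheroids, 13.4, 17.3 and 15.3 in large spheroids and 8.09, 4.68 and 6.4 in capsules. Large spheroids lay above the other 9 libraries. They exceeded monolayer 3.41-fold (1.77 ± 0.19, adjusted p = 4.82e-07), small spheroids 2.07-fold (1.05 ± 0.19, adjusted p = 9.85e-05) and capsules 2.39-fold (capsule against large spheroid -1.26 ± 0.19, adjusted p = 1.76e-05). The corrected values were 1.67, 1.08 and -1.37, and the 8 libraries alone gave 1.68, 1.09 and -1.31, each called. Small spheroids were above monolayer by 0.72 (adjusted p = 0.00373), a call not made with the 8 libraries alone (0.59, adjusted p = 0.118). The rise in capsules (0.51, adjusted p = 0.0333) was lost with the correction (0.30, adjusted p = 0.158), with the 8 libraries alone (adjusted p = 0.342) and without any 1 of monolayer 1 or 2 or capsule 1 or 3.

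PNPLA2, adipose triglyceride lipase, takes the first fatty acid off triglyceride. It had 210, 189 and 221 CPM in monolayer, 510, 501 and 517 in small spheroids, 219, 200 and 170 in large spheroids and 244, 397 and 374 in capsules. Small spheroids were highest without overlap. The rise over monolayer of 1.30 ± 0.14 (adjusted p = 2.42e-07) was not called with the correction (0.10, adjusted p = 0.252), nor was that in capsules (0.71, adjusted p = 2.34e-04, and -0.05, adjusted p = 0.562). Large against small spheroids gave -1.38 ± 0.14 (adjusted p = 2.55e-07) and -0.50 (adjusted p = 2.55e-05) with the correction. PLIN3, a perilipin that exchanges between cytosol and droplets, was lowest in large spheroids at 33, 33.6 and 35.6 CPM, 1.39-fold below monolayer (-0.47 ± 0.09, adjusted p = 1.66e-04; not passing with the 8 libraries alone, adjusted p = 0.0946) and 1.70-fold below small spheroids (-0.76; -0.22 with the correction, adjusted p = 0.0149). Its rise in small spheroids over monolayer (0.29, adjusted p = 0.00536) turned to -0.41 (adjusted p = 5.25e-05) with the correction and did not pass with the 8 libraries alone (adjusted p = 0.286). CPT1A, the gate for fatty acid entry into mitochondria, moved little: it was 1.2-fold, 1.19-fold and 1.22-fold lower in small spheroids, large spheroids and capsules than in monolayer (322 ± 6.59 CPM; adjusted p = 0.00285, 0.00702 and 0.00227). None of these 3 passed with the 8 libraries alone (adjusted p from 0.0595 to 0.411).

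Other genes of lipid metabolism were taken from 7 lists, described by counts and by the median log2 fold change in small spheroid, large spheroid and capsule against monolayer, in that order. The medians of all genes tested were 0.01, 0.00 and 0.04, and 37%, 28.7% and 34.5% of all genes rose and 35.3%, 28.4% and 31.5% fell. No test of a list against other genes was made. All values for the 7 lists are from the fit of all 12 libraries without the GC and length correction. Corrected values are not given for them, although fold changes over all genes followed GC content (rho 0.668 in small spheroid against monolayer). Of 22 tested genes of fatty acid oxidation, 7 rose and 9 fell in small spheroids, 2 rose and 9 fell in large spheroids and 8 rose and 6 fell in capsules (medians -0.13, -0.18 and 0.09). The smallest adjusted p in these comparisons was that of ACADVL, the very long chain acyl-CoA dehydrogenase, in small spheroids (1.10 ± 0.08, adjusted p = 2.50e-09) and large spheroids (0.71 ± 0.08, adjusted p = 8.47e-07), and of the thiolase ACAA1 in capsules (0.93 ± 0.08, adjusted p = 2.70e-08). Of 15 genes of SREBP, LXR and PPAR control, 7 rose and 4 fell in small spheroids, 4 rose and 6 fell in large spheroids and 4 rose and 5 fell in capsules (medians 0.18, -0.20 and -0.12). PPARA, the receptor that drives oxidation genes, fell by 1.28 ± 0.09 in capsules (adjusted p = 3.80e-09), and NR1H2, the LXR beta gene, rose by 0.93 ± 0.08 in small spheroids (adjusted p = 2.14e-08) and 0.64 ± 0.08 in large ones (adjusted p = 3.98e-06).

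Among 10 genes of citrate and NADPH supply, 5 rose and 4 fell in small spheroids, 2 rose and 6 fell in large spheroids and 5 rose and 4 fell in capsules (medians 0.25, -0.35 and -0.04). IDH2, the mitochondrial NADPH-forming isocitrate dehydrogenase, rose by 1.40 ± 0.10 (adjusted p = 2.93e-09) and 1.002 ± 0.10 (adjusted p = 2.99e-07) in small and large spheroids, and the citrate synthase gene CS fell by 0.88 ± 0.09 in capsules (adjusted p = 1.41e-07). Of 5 tested further desaturase and elongase genes, 1 rose and 3 fell in small spheroids, 0 rose and 2 fell in large spheroids and 1 rose and 2 fell in capsules (medians -0.77, -0.92 and -0.31). ELOVL4, the elongase of very long polyunsaturated chains, fell in each (-1.42, -1.24 and -1.14; adjusted p = 5.64e-08, 4.36e-07 and 8.50e-07). Of 9 other genes of glycerolipid and sterol ester assembly, 2 rose and 3 fell in small spheroids, 2 rose and 3 fell in large spheroids and 2 rose and 5 fell in capsules (medians 0.08, -0.07 and -0.40). SOAT1, which esterifies cholesterol, fell by 1.63 ± 0.12, 1.38 ± 0.12 and 0.99 ± 0.12 (adjusted p = 3.13e-09, 3.16e-08 and 9.62e-07).

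Of 13 other droplet and lipolysis genes, 5 rose and 3 fell in small spheroids, 2 rose and 4 fell in large spheroids and 4 rose and 4 fell in capsules (medians 0.54, -0.22 and 0.08). HILPDA, a hypoxia-inducible inhibitor of the PNPLA2 lipase, had the smallest adjusted p of the list in large spheroids against monolayer, a rise of 2.33 ± 0.11 (adjusted p = 2.28e-11), and was higher there than in small spheroids by 1.02 ± 0.10 (adjusted p = 2.50e-07) and than in capsules (capsule against large spheroid -1.63 ± 0.10, adjusted p = 9.10e-10). AUP1, a droplet surface protein, had it in small spheroids (1.23 ± 0.07, adjusted p = 2.30e-10) and capsules (1.33 ± 0.07, adjusted p = 1.58e-10).

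Of 13 tested genes of fatty acid and lipoprotein uptake, 8 rose and 3 fell in small spheroids, 5 rose and 5 fell in large spheroids and 7 rose and 4 fell in capsules (medians 0.67, -0.11 and 0.79). VLDLR, the very low density lipoprotein receptor, rose by 3.07 ± 0.12 in large spheroids (adjusted p = 4.37e-12), and capsule against large spheroid gave -3.24 ± 0.13 (adjusted p = 4.41e-12). SLC27A3, an acyl-CoA synthetase of the fatty acid transport protein family, rose by 2.33 ± 0.12 in small spheroids (adjusted p = 1.18e-10) and 2.03 ± 0.12 in capsules (adjusted p = 5.75e-10). Between the formats other than monolayer, the counts were 2 higher and 8 lower in large against small spheroids, 4 and 4 in capsule against small spheroids, and 8 and 4 in capsule against large spheroids, with medians of -0.84, 0.04 and 0.90. Beside them the medians of all genes tested lay between 0.00 and 0.02, and the shares of all genes were 32.9% higher and 33.4% lower, 27% and 25%, and 32.1% and 30.6%. In the same comparisons the medians of the other lists ran from -0.42 to 0.69, from -0.33 to 0.45 and from -0.05 to 0.36.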

How the data were processed

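RNA sequencing of 12 AU565 libraries was analysed, 3 for each of 4 culture formats. The table the authors deposited holds raw counts, as whole numbers, for each Entrez gene. Reads were assigned with featureCounts on build hg38, per the submitters' processing notes, after alignment with subread, per the file headers. The sources used here give no tool versions, annotation or strand setting, so reads of overlapping genes could be shared; 7 members overlap another row. Every row exceeded 0.5 CPM in at least 2 libraries (lowest second-highest value 0.501), and 164 rows had no symbol. Groups and replicate numbers come from the labels. The column of capsule 1 spells the format differently and was matched by format and number. All replicate pairs differed beyond sampling noise (chi-square over 11701 genes).

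Tests used edgeR 4.0.16 under R 4.3.3: filterByExpr with a minimum count of 10, TMM scaling, 1 quasi-likelihood fit of the 12 libraries with 1 coefficient per format (8 residual degrees of freedom), and Benjamini-Hochberg adjustment over 15175 genes per comparison. A gene was called at adjusted p below 0.05. Levels are TMM-scaled CPM, and errors of log2 fold changes are SE. The correction fitted natural splines with 4 degrees of freedom to GC content and log10 length of the longest GENCODE v29 transcript, available for 15393 rows (96.1%). Alternatives were DESeq2 1.42.0, limma-voom (limma 3.58.1), other scalings, no filter, only the formats compared, a replicate block and leaving out each library. The fit was also run on simulated data, whose outcome is not given here.

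The members and lists were chosen with earlier results of these data known. Named in each comparison are called members with an absolute log2 fold change of at least 1 (or the 5 largest where fewer reach it), ACLY, ACACA, FASN, SCD and SREBF1, and examples per role; from the other lists, the gene with the smallest adjusted p. Other members and comparisons were named after their values were seen, as was the 8-library setting.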

Additional observations from a re-analysis of the deposited data

How the results depend on the processing

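Among the counts of members called, those that moved by more than 1.5 times were the higher calls of large against small spheroid (5, against 9 with library totals and 8 with only the 2 formats fitted) and, with the 8 libraries low in cardiac myosin reads, large spheroid against monolayer (3 higher, 7 lower), capsule against monolayer (5 lower) and capsule against large spheroid (3 lower); in that setting a lone monolayer and a lone large spheroid library are assumed to vary like the other formats. Signs turned with the GC and length correction for ACLY (-0.0577 small spheroid against monolayer, 0.13 capsule against small spheroid), FASN (-0.89 and, in capsule against monolayer, -0.15) and SREBF1 (-0.0098 and, in capsule against small spheroid, 0.40). Library totals moved the median of all genes to -0.15 in small spheroid against monolayer, 0.11 in large against small spheroid and 0.12 in capsule against small spheroid, and turned ACLY (-0.0146 in the first, 0.0518 in the last), SCD (0.11 in large against small) and SREBF1 (0.0167 in capsule against small). SCD in large against small spheroid was 0.0061 with RLE scaling and with DESeq2 and 0.0187 with only the 2 formats. With the 8 libraries ACSL4 in small spheroid against monolayer was 0.24 and ACLY in capsule against monolayer -0.0211. Leaving out 1 library at a time gave ranges across 0 of -0.14 to 0.0214 for SREBF1 in large spheroid against monolayer, -0.0344 to 0.0420 for SCD in large against small spheroid, and -0.11 to 0.0260 for ACLY and -0.17 to 0.0343 for SREBF1 in capsule against small spheroid. The cause was not tested. The numbers of the replicates did not pair the libraries (same-numbered deviations correlated at -0.29 to 0.20, 3 of 18 above 0.1): a replicate block gave 17 higher members in capsule against large spheroid in place of 19 and 33 called among the 4 formats in place of 32. With it SCD in capsule against small (0.18, adjusted p = 0.0665) and large spheroid (0.18, adjusted p = 0.0545), GPAM in capsule against large spheroid (0.32, adjusted p = 0.0591), HSD17B12 in capsule against monolayer (-0.30, adjusted p = 0.0627) and ELOVL6 in large against small spheroid (-0.24, adjusted p = 0.067) were not called, and ACSL4 in large against small spheroid was (1.46, adjusted p = 0.0178). With the block and the correction together the 6 turned values were -0.0555 and 0.12 (ACLY), -0.88 and -0.14 (FASN) and -0.0095 and 0.40 (SREBF1). Low counts limit ACSL4, FADS1 and FADS2. Counts were also low for DGAT2 (59, 107 and 90) and PLIN2 (69, 123 and 106) in monolayer, and for THRSP (48, 70 and 66) in large spheroids.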
